A study of Mus musculus with 10 samples.

Results

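Rpl3 and Rpl3l are mouse paralogues that encode alternative forms of the ribosomal protein uL3. They are 2 of the 20692 genes in a table of read counts from mouse hearts, taken by their symbols. The pair was chosen from its counts in these same libraries, so its own levels, changes and ratio are given as a description with no test. The libraries came from polyadenylated RNA of the ventricular apex of wild-type FVB/NJ mice, an inbred laboratory strain, 9 weeks old and labelled female. In the TAC group, 5 hearts were taken 1 week after transverse aortic constriction, a surgical narrowing of the aorta that raises the pressure against which the left ventricle pumps. In the sham group, 5 hearts came from sham-operated mice, a label given by the series text and not by the titles of those libraries. All mice carried the same genotype, and the design counts these 10 as separate animals. The p-values set the difference between groups against the spread between animals of the same group.

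The uL3 protein is a core part of the large (60S) ribosomal subunit. It binds ribosomal RNA early in subunit assembly, and a loop of it reaches towards the peptidyl transferase centre, where peptide bonds form. Rpl3 is expressed in essentially all tissues. Rpl3l is expressed mainly in heart and skeletal muscle, where it can take the place of Rpl3 in the ribosome. Variants in both copies of the human orthologue RPL3L are a known cause of early-onset dilated cardiomyopathy, and Rpl3 is known to rise in the hearts of mice that lack Rpl3l.

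In GENCODE M21 (GRCm38), Rpl3 (ENSMUSG00000060036) spans chr15:80077791-80091868 on the minus strand and Rpl3l (ENSMUSG00000002500) spans chr17:24727820-24736143 on the plus strand. The main transcript of each gene has 10 exons, with 1351 bases for Rpl3 and 1375 bases for Rpl3l. The encoded proteins have 403 and 407 residues, in that order, and 310 of 402 aligned residues (77.1%) are identical. By stretches of 50 residues of Rpl3, identity was highest in the first 50 (86.0%) and lowest, at 72.0%, in residues 151 to 200 and 351 to 400. At the level of DNA, 888 of 1206 aligned coding bases (73.6%) are the same. The longest run shared exactly by both transcripts is 22 bases, coding bases 145 to 166 of each gene, counted from the first base of the start codon. No stretch of 36 bases is shared, so a read of that length or longer that matches one gene exactly does not match the other exactly. The stretch around the shared run is shown because it holds the longest exact match of the genes. Capitals mark bases that differ from Rpl3 in the 60 bases from coding base 127 to 186.
Rpl3: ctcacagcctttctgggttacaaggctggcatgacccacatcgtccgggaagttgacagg
Rpl3l: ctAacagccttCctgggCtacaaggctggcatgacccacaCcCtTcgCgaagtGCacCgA
The 60 bases with the most differences, coding bases 163 to 222, overlap that stretch in part, and 25 of the 60 differ there, against 11 in the stretch above.
Rpl3: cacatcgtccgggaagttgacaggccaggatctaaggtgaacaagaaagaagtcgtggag
Rpl3l: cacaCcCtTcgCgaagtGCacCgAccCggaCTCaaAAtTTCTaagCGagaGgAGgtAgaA
The processed pseudogene Rpl3-ps1, an intronless copy of Rpl3 on chromosome X, has 0 differences from Rpl3 in both stretches.

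Each library held between 7410967 and 10126574 counts, and 12001 genes passed the filter on low counts. Levels below are CPM, read counts brought to a common library size with TMM scaling. Fold changes are TAC over sham from a model fitted to all tested genes, and a gene was called at an adjusted p under 0.05 (edgeR's quasi-likelihood test, Benjamini-Hochberg adjustment). By that rule 35.8% of tested genes were called, 18.8% higher in TAC and 17% lower. TAC replicate 1 stood apart and did not match its label: it held 14 counts of Xist, a transcript of the inactive X chromosome, against 1042 to 1561 in the other 9 libraries. Of genes on the Y chromosome, Ddx3y had 155 counts there and Eif2s3y 132, while the other 9 libraries had 2 counts at most. The submitters' processing notes list different aligner versions and genome builds for the TAC and sham libraries, so processing and group cannot be told apart.

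Rpl3, the widely expressed form, was higher in every TAC heart than in every sham heart. The TAC libraries held 2212, 1676, 1961, 1914 and 1814 counts of Rpl3, and the sham libraries 1356, 1449, 1344, 1401 and 1550, replicates 1 to 5 in each. Scaled to library size, this was 256, 228, 236, 200 and 199 CPM in TAC and 142, 177, 174, 160 and 177 CPM in sham. The lowest TAC hearts, replicates 4 and 5, lay above the highest sham hearts, replicates 2 and 5. Rpl3 averaged 224 ± 24.4 CPM in TAC and 166 ± 15 CPM in sham (SD, n = 5 each). The fitted log2 fold change was 0.43 ± 0.08 (SE; 95% interval 0.25 to 0.61), which is 1.35-fold. A log2 fold change at least this high was seen for 14.6% of tested genes.

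Rpl3l, the striated muscle form, was lower in every TAC heart than in every sham heart. The TAC libraries held 598, 843, 908, 1179 and 1035 counts of Rpl3l, and the sham libraries 1645, 1356, 1361, 1709 and 1496. These are 69.1, 115, 109, 123 and 114 CPM in TAC and 172, 165, 176, 195 and 171 CPM in sham. TAC replicate 1 was the lowest of all, and the other 4 TAC hearts lay close together, below the lowest sham heart. Rpl3l averaged 106 ± 21.2 CPM in TAC and 176 ± 11.5 CPM in sham (SD, n = 5 each). The fitted log2 fold change was -0.73 ± 0.12 (SE; 95% interval -0.99 to -0.47), which is 0.602-fold. A log2 fold change at least this low was seen for 1.58% of tested genes, and the median of all of them was 0.00. Without TAC replicate 1 the log2 fold change was -0.61 for Rpl3l and 0.38 for Rpl3.

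The ratio of the 2 genes within a library does not depend on library scaling. Rpl3l had 0.27, 0.503, 0.463, 0.616 and 0.571 counts for each count of Rpl3 in the TAC hearts, against 1.21, 0.936, 1.01, 1.22 and 0.965 in the sham hearts. In TAC every heart held more Rpl3 than Rpl3l counts, while in sham the 2 genes were near parity. The ratio averaged 0.485 ± 0.134 in TAC and 1.07 ± 0.137 in sham (SD, n = 5 each). On the log2 scale it averaged -1.10 ± 0.468 in TAC and 0.0873 ± 0.183 in sham, a difference of -1.19. Without TAC replicate 1 the difference was -0.99. Rpl3l made up 32.2 ± 6.58% of the counts of both genes in TAC and 51.5 ± 3.16% in sham. The TAC heart with the highest share, replicate 4, had 38.1% (95% Wilson interval 36.4 to 39.8%), and the sham heart with the lowest, replicate 2, had 48.3% (46.5 to 50.2%). These intervals cover counting error only.

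**Figure D1:**
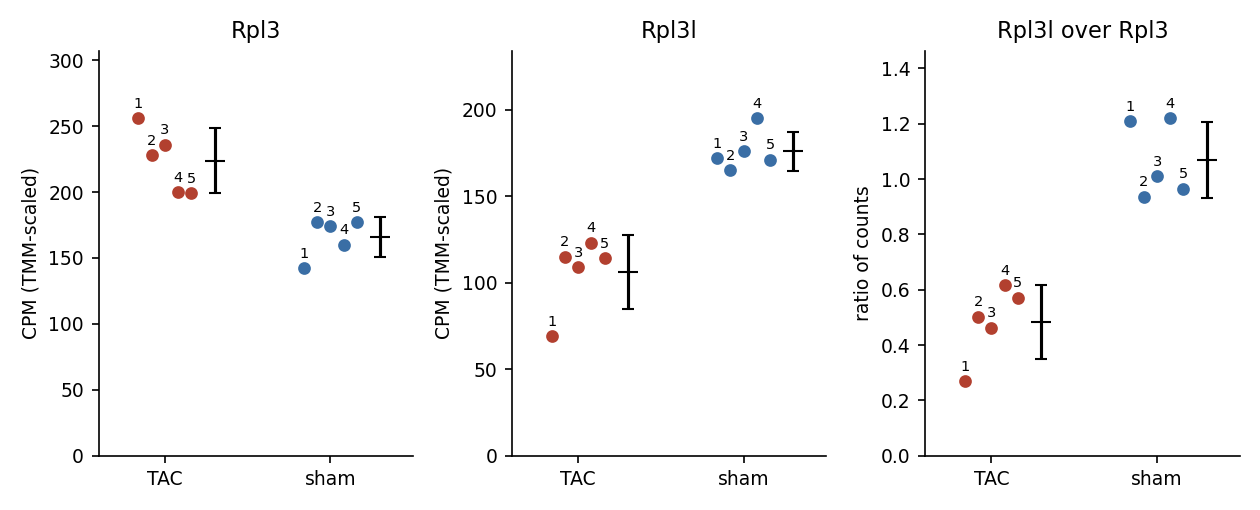
Levels of Rpl3 and Rpl3l (CPM, TMM-scaled) and the ratio of their counts in each library, TAC in red and sham in blue. Points are single hearts marked with their replicate number, and black bars are mean ± SD of 5 hearts. The Rpl3 panel has all TAC hearts (199 to 256 CPM) above all sham hearts (142 to 177 CPM), and the Rpl3l panel has them all below (69.1 to 123 against 165 to 195 CPM).

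The summed level of both genes overlapped between the groups. It was 325, 342, 346, 323 and 313 CPM in the TAC hearts and 315, 342, 349, 356 and 349 CPM in the sham hearts. The sum averaged 330 ± 13.9 CPM in TAC and 342 ± 16.1 CPM in sham (SD, n = 5 each), 0.964 of the sham mean. TAC replicate 1, which had the least Rpl3l, also had the most Rpl3, and its sum lay inside the range of the others. With library totals in place of TMM scaling, the log2 difference of the sum was 0.05 in place of -0.05. Per kilobase of transcript, Rpl3 stood at 166 ± 18.0 CPM in TAC and 123 ± 11.1 CPM in sham. Rpl3l stood at 77.1 ± 15.4 CPM per kilobase in TAC and 128 ± 8.36 in sham (SD, n = 5 each). On that per-length scale the order of the genes was the same as in the counts, Rpl3 above Rpl3l in TAC and the genes close in sham.

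**Figure D2:**
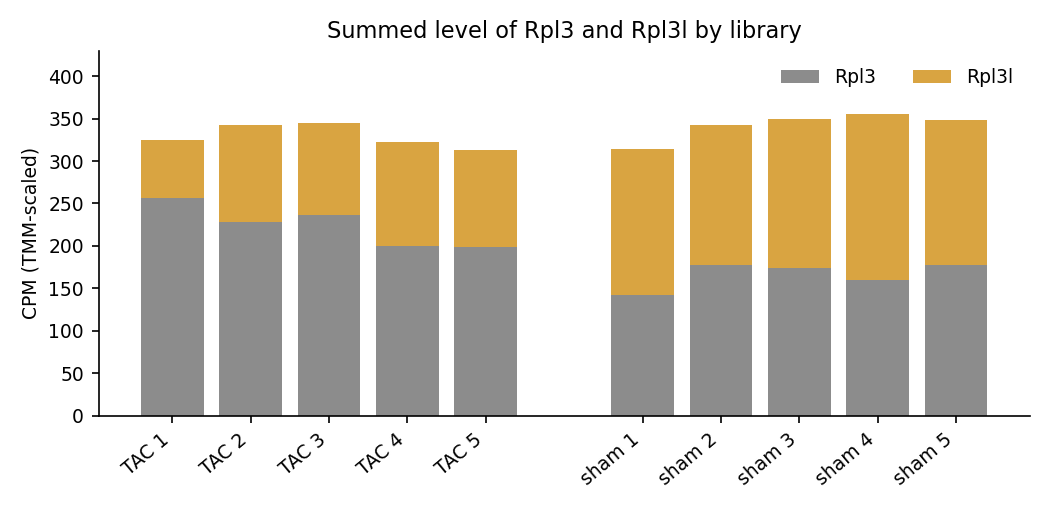
Rpl3 (grey) and Rpl3l (gold) stacked for each library, in CPM (TMM-scaled), with 5 TAC libraries on the left and 5 sham libraries on the right. The height of a bar is the sum of both genes, 313 to 346 CPM in TAC and 315 to 356 CPM in sham, while the gold part is smaller in every TAC library.

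Rpl3 transcripts share much of their sequence with pseudogenes, and Rpl3l transcripts share none. Of the 50-base windows of the Rpl3 transcript, 85.6% occur exactly in transcripts of 26 other genes in GENCODE M21, all 26 processed pseudogenes. Rpl3-ps1 holds 81.5% of the windows, Gm5879 55.1% and Rpl3-ps2 52.0%. None of the 26 has a row in the count table. The same share of Rpl3 was 86.8% for 36-base and 79.4% for 100-base windows, and it was 0% for Rpl3l at 50 bases. No source used here gives the read length or says how reads with several placements were treated. A counter that drops such reads would leave Rpl3 few places to be counted. Per 1000 unshared 50-base windows, Rpl3 stood at 1190 CPM in TAC and 883 CPM in sham. Rpl3l stood at 79.9 CPM and 133 CPM, in that order. Levels of Rpl3 against Rpl3l are thus uncertain, and the ratio near parity in sham is a ratio of counts, not of molecules. The aligner version and build differed with the group, so placement of Rpl3 reads may differ between groups too. Its part in the changes of Rpl3 and of the ratio was not tested and cannot be told apart from the group.

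Few other ribosomal protein genes, 6 of the 75 tested, share as much sequence with other transcripts as Rpl3 does. Across the other 75 cytosolic ribosomal protein genes tested, the share of windows found elsewhere was 0% to 95.1% (median 49.3%). The 6 genes with a share at or above that of Rpl3 had log2 fold changes of -0.21 to 0.06, and the other 69 had -0.22 to 0.18. Across these 75 genes, which share their libraries, share and log2 fold change had a Pearson correlation of -0.12 and a Spearman correlation of -0.08, given as a description. Rpl3 stood above all 75 in log2 fold change and Rpl3l below all of them. Whether the placement of reads played a part in any of these changes was not tested.

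**Figure D3:**
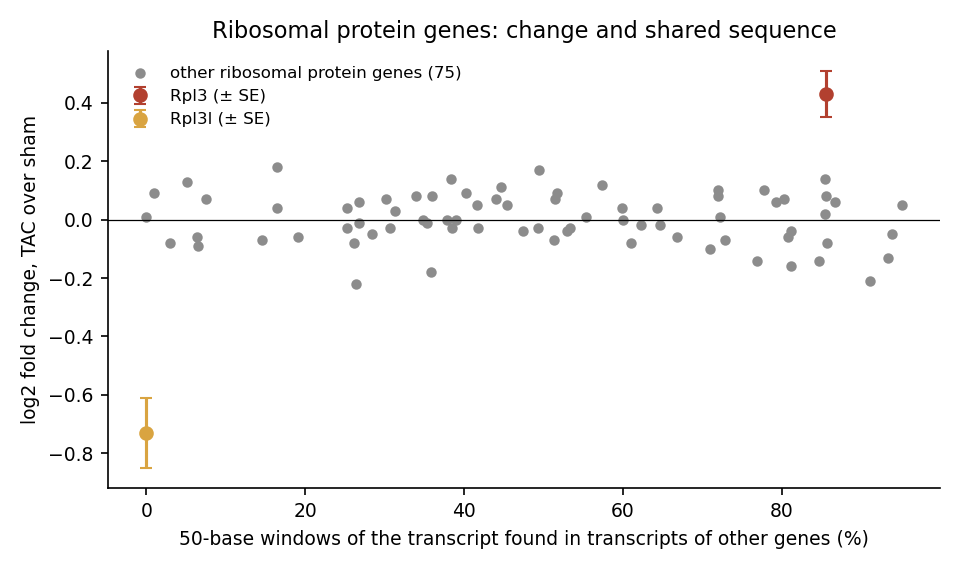
Log2 fold change (TAC over sham) of each ribosomal protein gene against the percentage of its transcript's 50-base windows found in transcripts of other genes. Grey points are the 75 other ribosomal protein genes, which lie between -0.22 and 0.18, and Rpl3 (0.43, red) and Rpl3l (-0.73, gold) carry bars of ± SE.

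The remaining ribosomal protein genes changed little beside the pair. Of the other 43 tested proteins of the 60S subunit, 0 rose, 1 fell and 42 did not pass the test, with log2 fold changes of -0.16 to 0.18 and a median of -0.00. At an unadjusted p under 0.05 these were 2 higher and 1 lower, and DESeq2 called 0 higher and 1 lower. The gene that fell was Rpl36, at 88.0 ± 2.75 CPM in TAC and 98.6 ± 6.4 CPM in sham (0.893-fold, adjusted p = 0.0353). That call was lost without any of sham replicates 1, 2, 4 and 5 or TAC replicates 3 to 5 (log2 fold change -0.17 to -0.14). Without TAC replicate 4 or TAC replicate 5 the list had 1 gene higher, Rpl12, and 0 lower. The highest after Rpl3 was Rpl39, a short protein of the exit tunnel, at 31.9 ± 3.63 CPM in TAC and 28.0 ± 3.18 CPM in sham (log2 fold change 0.18 ± 0.09, adjusted p = 0.153). Of 32 tested proteins of the small (40S) subunit, 0 rose and 4 fell, while 28 missed the threshold, and their median log2 fold change was 0.01. The unadjusted counts were 1 higher and 5 lower, and DESeq2 called 0 higher and 4 lower. For both subunits the share that fell was below the 17% of all tested genes.

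The 40S genes that fell did so by small amounts. Rps21 was at 166, 171, 185, 177 and 188 CPM in the TAC hearts and 210, 199, 202, 221 and 203 CPM in the sham hearts, without overlap (0.857-fold, adjusted p = 0.00571). Rps27, Rps29 and Rps6, the last of these a target of the S6 kinases, were at 0.865-, 0.883- and 0.906-fold (adjusted p = 0.0133, 0.0154 and 0.0482). The call of Rps6 was lost without any library other than sham replicate 1 and TAC replicate 2 (log2 fold change -0.15 to -0.12). Their fold changes kept their sign with library totals in place of TMM scaling, but all 4 calls were lost, at log2 fold changes of -0.12 for Rps21, -0.10 for Rps27, -0.07 for Rps29 and -0.04 for Rps6. With library totals only, all tested genes had a median log2 fold change of 0.11, and 3257 genes were called higher and 1159 lower, against 2251 and 2040 with TMM scaling. On that scale 12 of the 43 60S genes and 10 of the 32 40S genes were called higher and 0 lower, with medians of 0.11 and 0.12, close to the shift of all genes. Rpl3 kept 0.54 and Rpl3l -0.63 on that scale.

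The summed level of the other ribosomal protein genes gives another yardstick inside each library. It was 15659, 15388, 15705, 13964 and 14461 CPM in the TAC hearts and 15235, 14622, 15102, 15259 and 14955 CPM in the sham hearts, overlapping between groups. Rpl3 amounted to 1.63, 1.48, 1.5, 1.43 and 1.38% of that sum in TAC and 0.933, 1.21, 1.15, 1.05 and 1.19% in sham, with every TAC heart above every sham heart. Its mean was 1.49 ± 0.096% in TAC and 1.11 ± 0.114% in sham (SD, n = 5 each).

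Rpl3l is not the only ribosomal protein gene with a paralogue of restricted or alternative use, and the others in the table were not called. Of 8 such genes listed, 5 were in the table and 4 were tested, of which 0 rose and 0 fell (0 at an unadjusted p under 0.05, and 0 by DESeq2). Over all tested genes 35.8% were called, and 4 genes are too few to set against that share. With library totals only, 1 of the 4 was called higher. Rps27l, which is known as a target of p53, was at 31.4, 32.9, 32.2, 30.2 and 27.7 CPM in TAC and 27.7, 28.3, 24.5, 30.0 and 29.1 CPM in sham (log2 fold change 0.14 ± 0.07, adjusted p = 0.134). Rpl22l1, a paralogue of Rpl22, stood at 1.1 ± 0.417 CPM in TAC and 1.28 ± 0.193 CPM in sham, overlapping and low in both groups (log2 fold change -0.25 ± 0.27, adjusted p = 0.52). Rpl7l1 and Rpl36al had log2 fold changes of -0.00 ± 0.08 and -0.05 ± 0.06 (adjusted p = 0.998 and 0.542), and Rpl39l had too few counts to be tested.

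Genes that build the 60S subunit moved in both directions. Of 64 tested assembly factors, 10 rose, 6 fell and 48 did not pass, which is a lower share of calls than the 35.8% of all genes, and their median log2 fold change was 0.02. Surf6, a nucleolar protein, averaged 17.7 ± 1.2 CPM in TAC and 13.2 ± 1.33 CPM in sham (1.34-fold, adjusted p = 0.00267). Urb2, another nucleolar factor of early 60S assembly, averaged 17.2 ± 0.761 CPM in TAC and 13.4 ± 1.13 CPM in sham (1.28-fold, adjusted p = 0.00372). Las1l, which acts in the removal of the internal spacer of the ribosomal RNA precursor, fell to 48.6 ± 2.03 CPM in TAC, against 59.2 ± 3.95 CPM in sham (0.822-fold, adjusted p = 0.00282). Ddx24, an RNA helicase, fell to 94.5 ± 9.37 CPM in TAC, against 118 ± 6.9 CPM in sham (0.802-fold, adjusted p = 0.00392).

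Grwd1, whose yeast counterpart Rrb1 is the dedicated chaperone of newly made uL3, was named for that role after its values were seen. It was at 18.8, 20.1, 18.4, 18.0 and 17.0 CPM in the TAC hearts and 15.6, 15.4, 14.5, 12.7 and 14.5 CPM in the sham hearts, and the groups did not overlap. Its log2 fold change was 0.34 ± 0.08 (1.27-fold, adjusted p = 0.0049). Of 14 tested genes for RNA polymerase I, which transcribes the ribosomal RNA precursor, and its factors, 2 rose and 2 fell, while 10 missed the threshold, and their median log2 fold change was 0.10. Their share of calls is close to the 35.8% of all tested genes. Polr1a, the largest subunit of the polymerase, fell to 84.9 ± 6.56 CPM in TAC, against 105 ± 5.39 CPM in sham (0.809-fold, adjusted p = 0.00229). The initiation factor Rrn3 was at 0.885-fold (adjusted p = 0.0211), the activator Ubtf at 1.12-fold (adjusted p = 0.0298) and the terminator-binding factor Ttf1 at 1.23-fold (adjusted p = 0.0336). The call of Ubtf was lost without any of sham replicates 2, 3 and 5 or TAC replicates 3 and 5 (log2 fold change 0.13 to 0.16). That of Ttf1 was lost without any of sham or TAC replicates 1, 3 and 5 (0.25 to 0.31) and with DESeq2 (0.29).

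Rpl3l and Rpl3 are one of many pairs in which a muscle-enriched gene has a more widely expressed paralogue. The count ratio of the muscle gene to the wide gene was compared in 20 other pairs, and 18 of them passed a minimum of 10 counts in every library. The ratio was lower in TAC for 13 of the 18 pairs, higher for 0, and 5 did not pass (exact two-sided permutation tests that used every way of splitting 10 libraries into 5 and 5, adjusted over the 18 pairs; the smallest p possible is 0.00794 before adjustment). The median difference of the 18 was -0.37, and that of Rpl3l over Rpl3, -1.19, was lower than each of them, stated as a description. Its order against the next pair, Fabp3 over Fabp5 (-1.17), was not stable. Without TAC replicate 1 the difference was -0.99 for Rpl3l over Rpl3 and -1.14 for Fabp3 over Fabp5. The order also turned, by smaller amounts, without sham replicate 2, sham replicate 3 or TAC replicate 4, and both differences were -1.21 without TAC replicate 2. Among the 18 muscle genes of these pairs, 13 fell and 0 rose, and among the 18 wide genes 5 rose, 4 fell and 9 did not pass (edgeR, adjusted over all tested genes). Over all tested genes 18.8% were called higher and 17% lower, and the shares of the wide genes lie not far from these.

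In 3 of the 18 pairs the muscle gene fell and the wide gene rose, the directions in which the counts of Rpl3l and Rpl3 differed. One of them also belongs to the translation machinery. Eef1a2, the muscle and neuron form of the elongation factor that brings transfer RNA to the ribosome, was at 1420, 1610, 1520, 1670 and 1630 CPM in TAC and 1830, 1680, 1920, 1900 and 1940 CPM in sham. Its wide form Eef1a1 was at 1120, 904, 962, 794 and 982 CPM in TAC and 611, 638, 638, 647 and 617 CPM in sham. Neither gene overlapped between groups, and TAC replicate 1 had the lowest Eef1a2 and the highest Eef1a1, as it had the lowest Rpl3l and the highest Rpl3. The log2 ratio of Eef1a2 to Eef1a1 averaged 0.73 ± 0.26 in TAC and 1.55 ± 0.09 in sham (difference -0.83, adjusted exact permutation p = 0.0143). The fitted log2 fold change was -0.24 ± 0.06 for Eef1a2 (adjusted p = 0.00973) and 0.59 ± 0.08 for Eef1a1 (adjusted p = 0.000136). With library totals only, the fall of Eef1a2 missed the threshold, at a log2 fold change of -0.14 (adjusted p = 0.0622).

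The other 2 such pairs serve glycolysis and fatty acid binding. Eno3, the muscle enolase, was at 768, 1090, 1070, 1220 and 1140 CPM in TAC and 1430, 1500, 1660, 1750 and 1690 CPM in sham. The log2 ratio of Eno3 to Eno1 averaged 1.97 ± 0.4 in TAC and 2.79 ± 0.14 in sham (difference -0.83, adjusted exact permutation p = 0.0143). Fabp3, the heart fatty acid binding protein, was at 3120, 3730, 3140, 3660 and 3520 CPM in TAC and 5340, 4410, 4440, 4560 and 4420 CPM in sham. The log2 ratio of Fabp3 to Fabp5 averaged 6.16 ± 0.4 in TAC and 7.34 ± 0.22 in sham (difference -1.17, adjusted exact permutation p = 0.0143), which is the pair nearest in size to Rpl3l over Rpl3. Eno1, the wide enolase, rose by 0.21 ± 0.07 on the log2 scale (adjusted p = 0.0265), a call that was lost without sham replicate 1, sham replicate 4 or TAC replicate 2 (0.19 to 0.20). Fabp5, a fatty acid binding protein of many tissues, rose by 0.76 ± 0.13 (adjusted p = 0.000888). For both pairs the TAC libraries lay below all sham libraries in the ratio.

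In the remaining called pairs only 1 gene was called by edgeR, or both were called in the same direction. The glucose transporters Slc2a4 and Slc2a1 had a difference of -0.75, with Slc2a4 lower (log2 fold change -0.53 ± 0.06, adjusted p = 5.16e-05) and Slc2a1 not passing (0.21 ± 0.1, adjusted p = 0.121). Actc1 over Actb, cardiac and cytoplasmic actin, had a difference of -0.62, and there the wide gene Actb rose (0.51 ± 0.08, adjusted p = 0.000324). Cytochrome c oxidase subunit pairs had differences of -0.36 for Cox6a2 over Cox6a1, -0.43 for Cox8b over Cox8a and -0.25 for Cox7a1 over Cox7a2, and in the last of these both genes fell. Hk2 over Hk1, the hexokinases, had a difference of -0.00 (adjusted exact permutation p = 0.976), with both genes called lower at -0.21 ± 0.07 each, though each of these calls was lost in 7 alternatives. Without TAC replicate 1, 10 pairs were called, and the calls lost were Ckm over Ckb (-0.38), Slc25a4 over Slc25a5 (-0.26) and Pfkm over Pfkl (-0.26). The call of Pfkm over Pfkl was also lost without any of sham replicates 2 to 5 or TAC replicates 2 and 3 (-0.38 to -0.31).

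**Figure D4:**
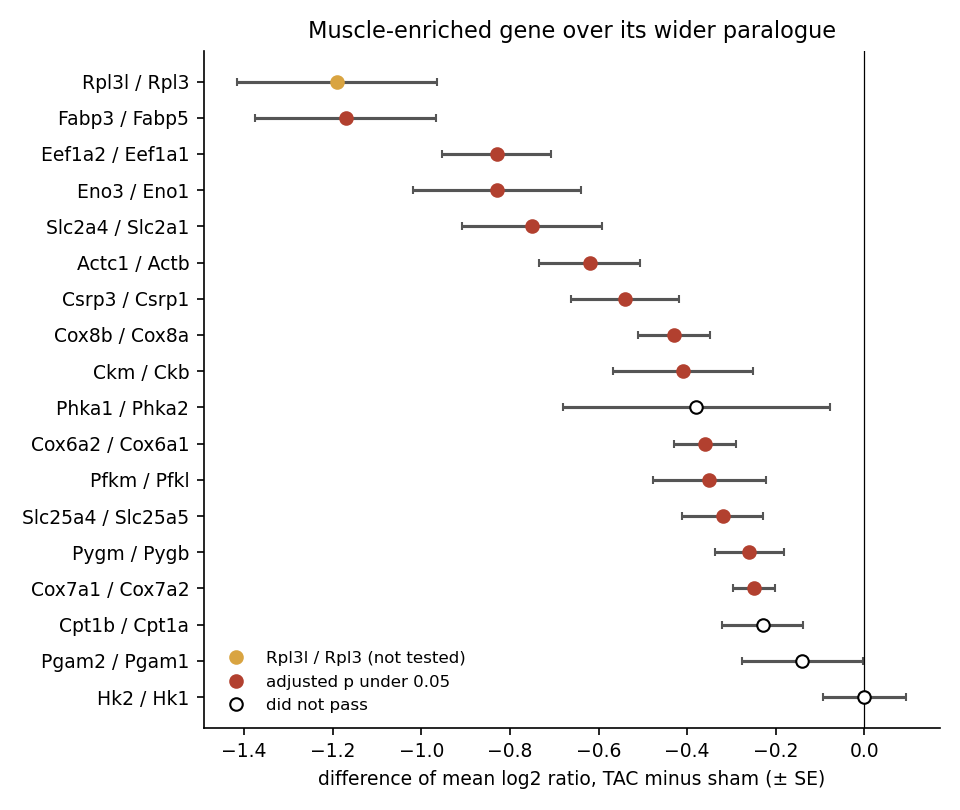
Difference of the mean log2 count ratio of a muscle-enriched gene to its wider paralogue, TAC minus sham, with bars of ± SE over 5 hearts a group. Red points mark the 13 pairs with an adjusted exact permutation p under 0.05, open points pairs that did not pass (not all are drawn), and the gold point Rpl3l over Rpl3 (-1.19), which was not tested.

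The genes whose profiles over the 10 libraries lay nearest to that of Rpl3l were Acaa2, Ybx2, Ppm1l, Eno3 and Gstk1. Nearness is the root mean square difference of log2 CPM, each gene centred on its own mean, and it was 0.103 to 0.108 for these genes, against a median of 0.47 over 10869 genes. Acaa2, a mitochondrial thiolase of fatty acid oxidation, was at 188, 265, 247, 324 and 285 CPM in TAC and 499, 426, 443, 465 and 443 CPM in sham. Ybx2, a Y-box RNA-binding protein, was at 11.7, 18.9, 21.1, 23.1 and 17.5 CPM in TAC and 27.9, 28.9, 27.5, 31.0 and 29.3 CPM in sham. TAC replicate 1 was the lowest library for Acaa2, Ybx2, Ppm1l, Eno3 and Gstk1, as it was for Rpl3l. Choosing genes by nearness over these same libraries favours such a likeness. The genes nearest to Rpl3 were Ralb, Ap1s1, Traf3, Creb3l2 and Sept9 (listed in the table as a date number and named by its Ensembl ID), at 0.053 to 0.070 (median of all 0.31). Ralb, a small GTPase, was at 63.3, 55.0, 63.0, 50.5 and 50.4 CPM in TAC and 37.8, 43.9, 42.6, 43.2 and 46.0 CPM in sham. Sham replicate 1 was its lowest library, as it was for Rpl3, which the choice by nearness favours as well. No ribosomal protein gene was among these 10 genes. Nearness includes the difference between groups, and the other 75 had log2 fold changes of only -0.22 to 0.18, so none could be among them.

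Library construction lost the strand, so the strand cannot tell apart reads from overlapping genes. No source used here says how such reads were counted. Syngr1, a synaptic vesicle protein gene on the opposite strand, overlaps the longest annotation of Rpl3 and fell, to 66.8 ± 6.5 CPM in TAC, against 79.4 ± 2.67 CPM in sham (log2 fold change -0.25 ± 0.07, adjusted p = 0.0119). Next to Rpl3l lie Rps2, Ndufb10 and Msrb1. Rps2, a 40S protein gene, had a log2 fold change of -0.14 that missed the threshold (adjusted p = 0.093). Ndufb10, a subunit of mitochondrial complex I, fell to 466 ± 39 CPM in TAC, against 629 ± 30 CPM in sham (log2 fold change -0.43, adjusted p = 0.000314). Msrb1, a methionine sulfoxide reductase listed in the table as Sepx1, fell as well (log2 fold change -0.38, adjusted p = 0.000474).

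Markers of the cell types in the tissue moved with the group, and their part in the levels of Rpl3 and Rpl3l was not tested. In bulk tissue, fewer cells of a type and less RNA per cell cannot be told apart. The summed level of 20 cardiomyocyte markers was 88500 to 115000 CPM in TAC and 118000 to 139000 CPM in sham (log2 difference -0.31, exact two-sided permutation test, adjusted p = 0.0119 over 9 lists). Of these 20 genes, 12 fell, 0 rose and 8 did not pass, against 17% of all tested genes called lower. Rpl3l stood at 0.781, 1.0, 1.1, 1.07 and 1.07 CPM for each 1000 CPM of these markers in the TAC hearts and 1.35, 1.4, 1.26, 1.51 and 1.27 in the sham hearts. Relative to the summed markers Rpl3l was lower in every TAC heart, with a mean of 1.0 ± 0.129 in TAC and 1.36 ± 0.104 in sham, 0.738 of the sham mean. The sum gives most weight to abundant markers such as Myh6 and Ttn. Single markers differed widely, with log2 fold changes of -0.81 (Tcap) to 0.05 (Csrp3) and a median of -0.37. Rpl3l (-0.73) lay within that range, with Tnni3 at -0.60, Pln at -0.59 and Ttn at 0.00. Without Myh6, the most abundant marker, the log2 difference of this quantity was -0.51 in place of -0.45.

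**Figure D5:**
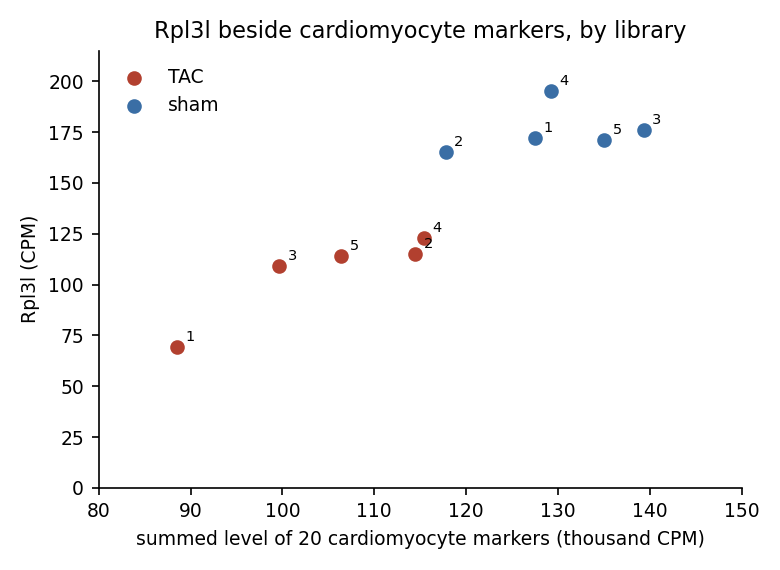
Rpl3l (CPM) against the summed level of 20 cardiomyocyte markers (in units of 1000 CPM, on an axis that starts at 80) in each heart, TAC in red and sham in blue, numbered by replicate. The TAC hearts lie below and to the left, at 69.1 to 123 CPM of Rpl3l, and the sham hearts at 165 to 195 CPM.

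Markers of several cell types other than cardiomyocytes were higher in TAC. The summed level of 16 fibroblast markers was 5120 to 10600 CPM in TAC and 2840 to 3560 CPM in sham (log2 difference 0.90, adjusted exact permutation p = 0.0119), with 12 higher, 1 lower and 3 not passing. The 16 macrophage markers summed to 473 to 772 CPM in TAC and 311 to 365 CPM in sham (0.68, adjusted exact permutation p = 0.0119), and 13 of the 15 tested rose. In both sums TAC replicate 1 was the highest library, the one with the most Rpl3 and the least Rpl3l. Smooth muscle and pericyte markers summed to 5600 to 7550 CPM in TAC and 5070 to 5600 CPM in sham (0.22, adjusted exact permutation p = 0.0119), with 4 of 12 higher. Des, which cardiomyocytes also express, made up most of that sum, at 4310 ± 843 CPM in TAC and 3500 ± 271 CPM in sham, and did not pass (adjusted p = 0.0525). Acta2, Myh11 and Abcc9 had fold changes below 1 (0.803, 0.951 and 0.831) and did not pass. The log2 difference of the sum was 0.14 without TAC replicate 1, and the call was lost without sham replicate 2 (0.21) or sham replicate 4 (0.20). Endothelial markers summed to 2410 to 2910 CPM in TAC and 2260 to 2590 CPM in sham (0.17, adjusted exact permutation p = 0.0408), with 5 of 14 higher, a call lost when any library other than sham replicate 1 or TAC replicate 1 was left out (0.14 to 0.19). Over all tested genes 18.8% were called higher. Genes of cell division summed to 138 to 259 CPM in TAC and 46.7 to 74.9 CPM in sham (1.72, adjusted exact permutation p = 0.0119), and 14 of 15 tested rose.

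Markers of other muscle were low or did not pass. Skeletal muscle, the other main site of Rpl3l, had 12 markers in the table, of which 1 could be tested and did not pass and Tnnc2 was at 0 in all libraries. They summed to 33.3 to 119 CPM in TAC and 40.4 to 47.5 CPM in sham (adjusted exact permutation p = 0.69). Atrial markers summed to 40.9 to 48.8 CPM in TAC and 58.9 to 66.4 CPM in sham (log2 difference -0.49, adjusted exact permutation p = 0.0119), with 1 of 3 tested genes higher, 1 lower and 1 not passing. The lower sum was carried by Tbx5, a transcription factor not restricted to atria, at 20.8 ± 4.08 CPM in TAC and 41.1 ± 3.44 CPM in sham. Nr2f2 was higher, at 19.9 ± 2.12 CPM in TAC and 16.6 ± 1.79 CPM in sham, and Sln, Myl7 and Bmp10 averaged under 1 CPM in both groups. Lymphocyte and neutrophil markers summed to 7.46 to 12.3 CPM in TAC and 5.6 to 12.2 CPM in sham (adjusted exact permutation p = 0.161), and Ly6g was at 0 in all libraries.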

How the data were processed

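The authors deposited whole-number read counts per gene, not normalized, for 10 single-end libraries of polyadenylated RNA that do not keep the strand, per the labels' protocols. For TAC, the submitters' processing notes name TopHat 1.3.0 with Bowtie and both mm9 and mm10. For sham they name TopHat2 2.0.10 with Bowtie2 and mm10 alone. HTSeq appears for both groups, and GRCm37 stands in the table's header. No source used here gives the annotation release or the counter's settings. A row of column totals was left out.

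The test was edgeR's quasi-likelihood F test (edgeR 4.0.16, limma 3.58.1, R 4.3.3) with TMM factors and a single term, group. Genes passed filterByExpr (minimum count 10, minimum total 15), and p-values were adjusted after Benjamini and Hochberg, with 0.05 as the threshold. DESeq2 1.42.0 and other scalings and filters were alternatives. The log2 CPM values used a prior count of 2. Isoform pairs needed 10 counts in every library. Nearness was computed among tested genes whose mean log2 CPM reached 1, without predicted genes and pseudogenes. Sequences, lengths and positions came from GENCODE M21 (GRCm38), where 94.6% of the table's IDs were found. The edgeR step was tested on simulated data.

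The members and the gene lists were chosen with earlier results of these data known. Genes named are Rpl3 and Rpl3l, the isoform pairs, the 4 genes with the smallest adjusted p in each ribosomal list, all ribosomal paralogues, the 5 genes nearest to each member and their genomic neighbours. Grwd1, Rpl39, Rpl12 and single marker genes fall outside this rule and were named after their values were seen. An isoform pair that is counted in the text is neither named nor drawn here.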

Additional observations from a re-analysis of the deposited data

Results flagged for a closer look

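Single libraries that stood far from the rest of their group were looked for in 66 groups of 5 values, and 6 were found. A library was flagged where its gap to the nearest value, over the range, passed Dixon's limit at 95%. Some groups hold the levels, ratio and sum of Rpl3 and Rpl3l themselves. For these the flag is a description and not a test. Chance alone flags about 1 in 20 such groups. TAC replicate 1 gave 3 of the 6. Its Rpl3l level was 69.1 CPM, against 109 to 123 CPM in the other TAC hearts. Its fibroblast markers summed to 10600 CPM, against 5120 to 5460 CPM in the other TAC hearts, and its macrophage markers to 772 CPM, against 473 to 509 CPM. This is also the library that did not match its female label. Without it the log2 difference of Rpl3l over Rpl3 was -0.99, in place of -1.19, and the log2 fold change of Rpl3l was -0.61, in place of -0.73.

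The other 3 concern isoform pairs. The log2 ratio of Ckm to Ckb was 5.64 in sham replicate 1, against 4.77 to 5.02 in the other sham hearts. The log2 ratio of Csrp3 to Csrp1 was 4.42 in TAC replicate 2, against 3.84 to 3.97 in the other TAC hearts, and 4.76 in sham replicate 1, against 4.45 to 4.51 in the other sham hearts. Sham replicate 1 was also the sham library with the least Rpl3, at 142 CPM.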

How the results depend on the processing

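Rpl3 kept a positive and Rpl3l a negative log2 fold change under all alternatives run, at 0.38 to 0.54 and at -0.79 to -0.61. The log2 difference of their ratio ran between -1.29 and -0.99, with -1.01 from medians. The log2 difference of the summed level was 0.05 with library totals only, against -0.05. For Rpl3l per cardiomyocyte marker it ran between -0.51 and -0.36. Genes called numbered 3615 to 4416. Library totals only gave 12 called other 60S proteins, 10 called 40S proteins and 1 called paralogue, against 1, 4 and 0, where the median of all genes was 0.11. With no filter on low counts, 0 other 60S proteins were called, and leaving out each replicate gave 0 to 1. The called gene was higher, not lower, in TAC without TAC replicate 4 or 5 and under scaling to the other ribosomal protein genes (Rpl12). Over the alternatives run, the call of Rpl36 was lost in 11, that of Rps6 in 12 and those of Ubtf and Ttf1 in 8 each. RNA polymerase I genes called numbered 2 when counts were scaled to the other ribosomal protein genes, and 2 to 5 when each replicate was left out, against 4. Among pairs, 10 of 18 were called without TAC replicate 1, against 13. The replicate numbers did not pair the samples: correlations of deviations between same-numbered TAC and sham libraries over 12001 genes were 0.0048, -0.0392, 0.0586, 0.222 and -0.0916 for replicates 1 to 5. Replicates 3 and 4 correlated best with their own number. With a replicate block 4037 genes were called, with 0 other 60S proteins, 2 RNA polymerase I genes and 11 assembly factors against 16. A block cannot move the ratio difference of -1.19, since the mean of paired differences equals the difference of the group means. Adding rows of Rpl3 pseudogenes was not run, since the table holds none. The summed level, the level per marker and the counts under scaling to ribosomal proteins were chosen after seeing the data. Of other results for single genes, pairs and lists, 45 of 423 lost their call and 6 gained one outside the left-out replicates. The depth of at least 7410967 counts left rare paralogues such as Rpl39l untested.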
